A study of Mus musculus with 8 samples.

Results

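The response of CAV1-deficient peritoneal mesothelial cells (MCs) to mechanical stretch was described from 4 of the 8 RNAseq libraries of a mouse experiment: the static and the stretched culture of CAV1-/- animal 1 and those of CAV1-/- animal 2. The libraries were chosen by their labels, and each stretched culture was set against the static culture of the same animal. The CAV1-/- animals carried the allele of the strain B6.Cg-CAV1tm1mls/J, labelled Cav-1-, and the other 4 libraries came from WT littermates, animals 3 and 4, with 1 static and 1 stretched culture each. Cells of all groups were digested from the parietal peritoneum with trypsin, expanded in serum-rich medium until confluent, and then stretched or left static for 24 h before poly-A RNA was prepared. The labels give no age or sex for these animals, the methods state that mice of both sexes were used for cultures, and the stretch regime of the mouse cells is not given in the sources used here. The allele is carried in the germline, so all cell types in these cultures shared it, and no sorting step is stated. Values are CPM normalized with the TMM method, with the static value of an animal given first and the stretched value second, and changes are differences of log2(value + 1), stretched minus static, which understate the change of genes with low values.

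Mesothelial cells form the epithelial-like sheet that lines the peritoneal cavity. Under injury, inflammation or mechanical load they can lose keratins and surface proteins of that sheet and gain features of matrix-producing myofibroblasts, a change called mesothelial-to-mesenchymal transition (MMT) in which TGF-beta signaling and the co-activators YAP and TAZ take part. Caveolin-1, the product of Cav1, is the main coat protein of caveolae, small pits of the plasma membrane that flatten when the membrane is stretched and that also take part in the uptake of signaling receptors. The comparison asks what stretch did to the transcripts of MCs that lack this protein.

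The targeted gene (Cav1, ENSMUSG00000007655, GRCm38 chromosome 6, 17306335 to 17341452) was at 34.5 in the static and 20.04 in the stretched culture of animal 1, and 18.9 and 12.8 in animal 2. The WT cultures held 764 and 569.9 in WT animal 3 and 275 and 247 in WT animal 4, so every CAV1-/- library lay below every WT library, and the normalized value was lower in the stretched culture of both CAV1-/- animals (log2 change -0.64 ± 0.11 SE, adjusted p = 0.134). Library totals ranged from 9777738 to 21203938 reads over the 8 libraries, and the stretched library of each animal was the deeper one, so depth moved with stretch. The 2 CAV1-/- animals differed from each other in markers of cell types. Summed over 17 leukocyte markers, the 4 libraries held 4823 (static) and 4851 (stretched) in animal 1 against 314 and 349.7 in animal 2. Of the 17, 15 were higher in both cultures of animal 1 than in the other 6 libraries. The share of all tested genes with that order of libraries was not counted. Lyz2, the lysozyme of macrophages, was at 3648 and 3920.2 in animal 1 and 201 and 231 in animal 2, static and stretched. The sum, most of it Lyz2, thus hardly moved with stretch within either animal. The median change of the 17 markers was -0.21 in animal 1 and 0.13 in animal 2. The part of these markers in the differences between the animals was not tested. The fibroblast markers went the other way, with sums of 199.5 and 62.5 in animal 1 and 1546 and 1241 in animal 2. Because the samples are bulk RNA, fewer cells of a type and less RNA per cell cannot be told apart.

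**Figure D1:**
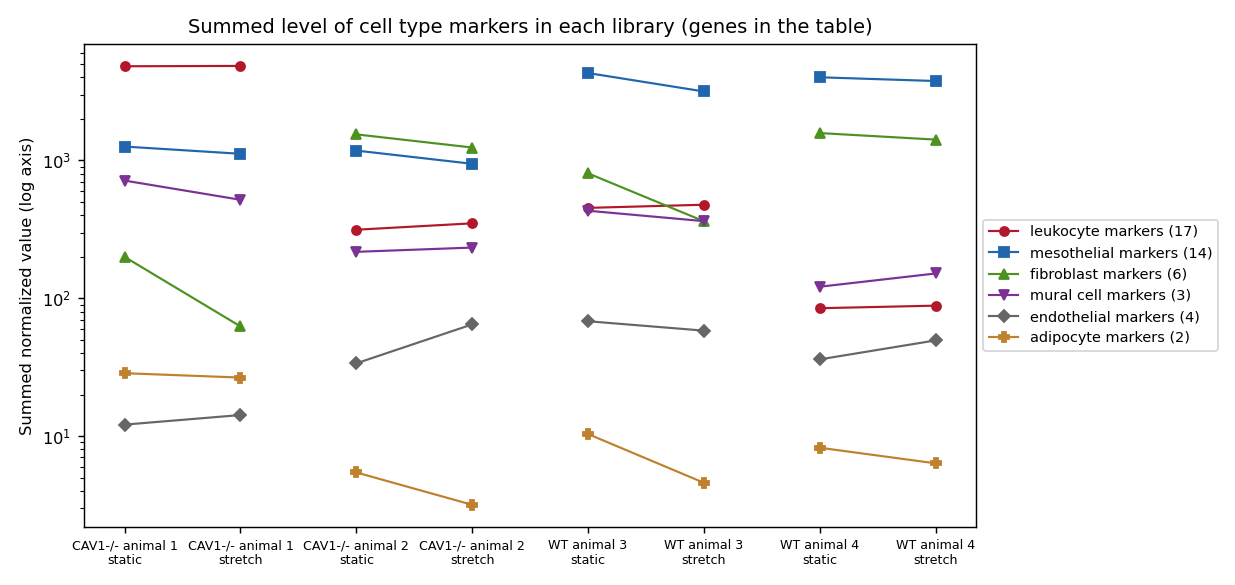
Summed normalized value (log axis) of the markers of 6 cell types in each of the 8 libraries, with a line joining the static and the stretched culture of an animal. Leukocyte markers reach 4823 and 4851 in CAV1-/- animal 1 and 314 and 349.7 in animal 2, while the lines within an animal are nearly flat for that list and fall for the fibroblast markers of animal 1 (199.5 to 62.5).

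Across the 13665 genes tested, the stretch change of a gene in animal 1 was only loosely related to that in animal 2 (Pearson r = 0.337 over genes, which are not independent replicates, and 0.296 between the WT animals). In both CAV1-/- animals 4093 genes were higher on stretch (30%) and 4226 were lower (30.9%), and 125 genes were higher (0.915%) and 158 lower (1.16%) by at least 1.5-fold in each animal. Of these, 31 of the 125 and 38 of the 158 moved by at least 1.5-fold in the same direction in both WT animals as well. The share of all tested genes that did so in the WT animals was not counted. With the animal in the model, limma called 1 gene (0.00732%) at an adjusted p under 0.05. At an unadjusted p of at most 0.05, 899 genes were higher (6.58%) and 925 lower (6.77%), and 47 genes had an adjusted p under 0.1. An exact test of 2 pairs cannot go below p = 0.5 for a single gene, so these p-values rest on the spread shared over genes and animals. The count of calls moved widely with the model. It was 0 without the animal term or without either CAV1-/- animal, 138 when the 4 CAV1-/- libraries were fitted alone, and 164 or 163 when 1 WT animal was left out, while 2 genes were called by edgeR and 150 by DESeq2 on the recovered reads. Below, "rose" is therefore kept for the 1 called gene, and other genes are given by their values in each culture.

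**Figure D2:**
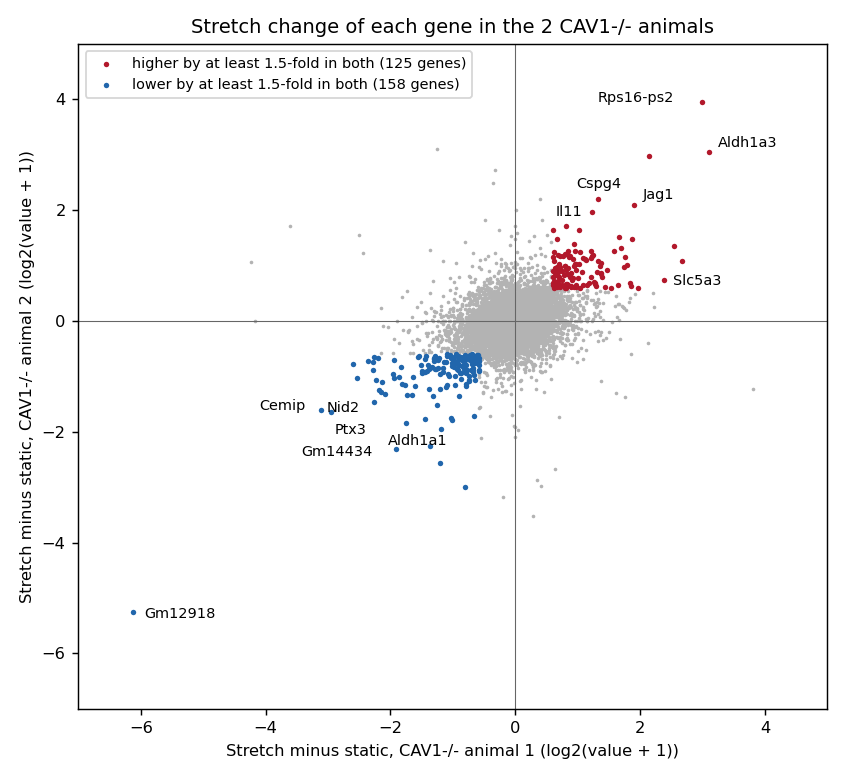
Stretch-minus-static change of each of the 13665 tested genes in CAV1-/- animal 1 (x axis) against animal 2 (y axis), both as differences of log2(value + 1). Red points are the 125 genes higher and blue points the 158 genes lower by at least 1.5-fold in both animals, with Aldh1a3 at 3.09 and 3.05 in the upper right.

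Aldh1a3 (ENSMUSG00000015134, GRCm38 chromosome 7, 66390890 to 66427517), an enzyme that makes retinoic acid from retinal, was the gene that rose. Its value was 2.97 in the static and 32.9 in the stretched culture of animal 1, and 2.88 and 31.03 in animal 2, an 11.1-fold and a 10.8-fold difference (log2 change 3.07 ± 0.16 SE, adjusted p = 0.009 by limma). The 2 static and the 2 stretched cultures lay in narrow, separate ranges, and the reads behind them were 36 and 678 in animal 1 and 28 and 567 in animal 2. The call was lost without CAV1-/- animal 1 (adjusted p = 0.173) or animal 2 (adjusted p = 0.0878), without the animal term (adjusted p = 1.00) and with eBayes without trend (adjusted p = 0.0936). In the WT animals the gene was also higher on stretch, at 3.43 and 17.3 in WT animal 3 and 17.4 and 54.2 in WT animal 4. Aldh1a1, which catalyses the same step, was lower on stretch, at 12.1 and 2.91 in animal 1 and 15.6 and 3.61 in animal 2 (static and stretched). Dhrs3, which returns retinal to retinol and was chosen after its values were seen, was at 19.4 and 12.03 in animal 1 and 24.8 and 11.3 in animal 2. Aldh1a1 was far lower in every CAV1-/- library than in the WT libraries, which held 227 and 61.3 in WT animal 3 and 189 and 118 in WT animal 4.

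**Figure D3:**
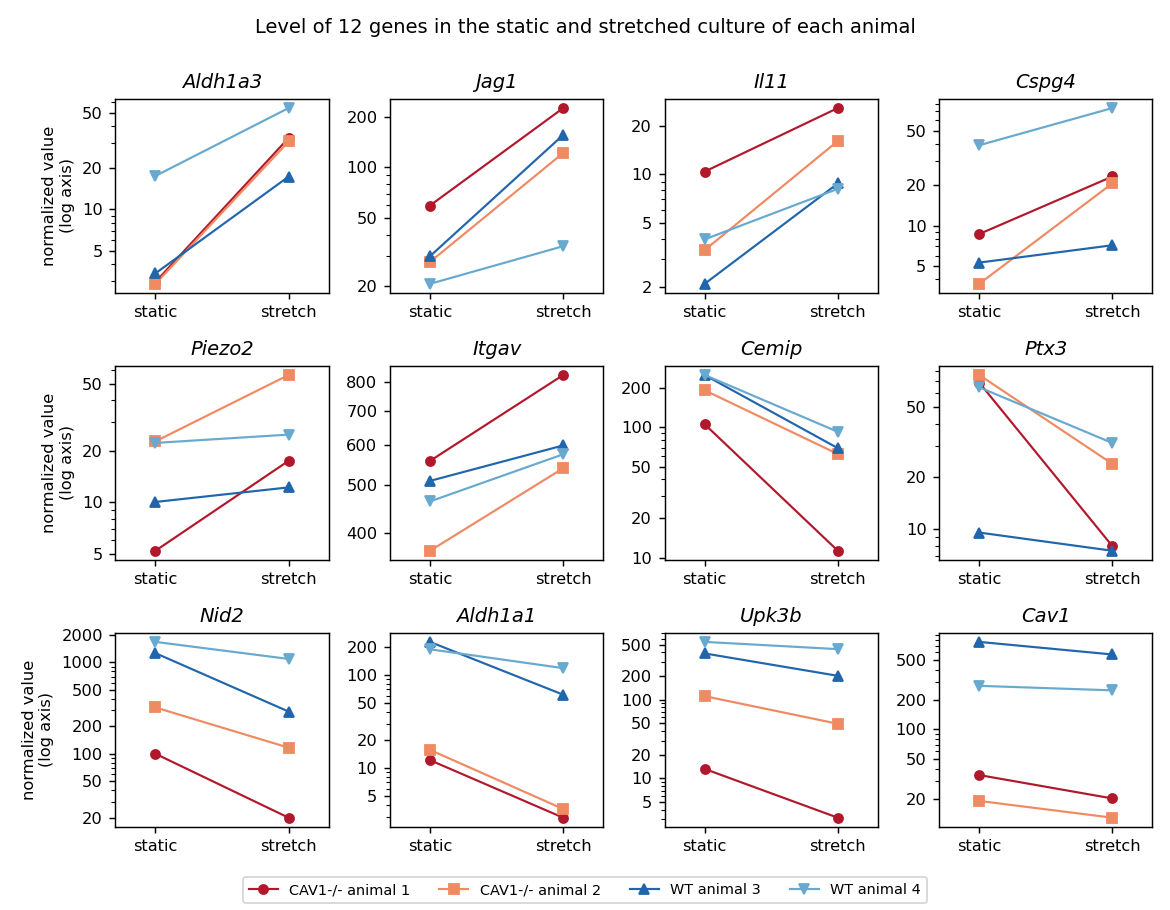
Normalized value (log axis, scaled separately per gene) of 12 genes in the static and the stretched culture of each animal, CAV1-/- in red and orange and WT in blue. Aldh1a3, Jag1, Il11, Cspg4, Piezo2 and Itgav are higher and the other 6 lower in the stretched culture of both CAV1-/- animals, and Aldh1a3 reaches 32.9 and 31.0 from 2.97 and 2.88.

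The genes with the largest higher values on stretch, taken by size among those with a mean of at least 5 and an unadjusted p of at most 0.05, were of mixed kinds. Jag1, a membrane-bound ligand of Notch receptors, was at 59.6 in the static and 225 in the stretched culture of animal 1, and 27.7 and 122 in animal 2 (log2 change 2.00 ± 0.34 SE, adjusted p = 0.139). Both stretched cultures lay above both static ones. Il11, a cytokine of the IL-6 family that is produced in response to TGF-beta, was at 10.4 and 25.7 in animal 1 and 3.39 and 16.1 in animal 2 (static and stretched). Cspg4, the NG2 proteoglycan used as a marker of pericytes, was at 8.65 and 23.1 in animal 1 and 3.70 and 20.6 in animal 2. Tnfrsf11b, the decoy receptor osteoprotegerin, was at 4.37 and 16.4 in animal 1 and 2.67 and 8.15 in animal 2. For these genes too the ranges of static and stretched cultures were separate. Tfpi2, an inhibitor of serine proteases in the matrix, was at 12.4 and 41.4 in animal 1 and 8.53 and 26.3 in animal 2. Acsbg1, an acyl-CoA synthetase, was at 2.97 and 13.5 in animal 1 and 3.60 and 11.9 in animal 2. Megf10, an engulfment receptor, was at 7.75 and 28.5 in animal 1 and 10.6 and 24.9 in animal 2. The myo-inositol transporter Slc5a3, a gene known for its induction by osmotic stress, differed in size between the animals, at 21.2 and 115 in animal 1 and 18.4 and 31.6 in animal 2. Adjusted p-values of these 8 genes by limma ran from 0.0973 (Megf10, Cspg4) to 0.243 (Slc5a3). The remaining entry, Rps16-ps2, had 0 reads in both static cultures and values of 6.94 and 14.4 in the stretched ones, but it is a processed pseudogene of a ribosomal protein gene whose reads can be shared with near-identical copies, so its values are uncertain.

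The 10 genes with the largest lower values on stretch, taken by the same rule, were of mixed kinds, 3 of them with uncertain reads. Cemip, which binds and breaks down hyaluronan, was at 106 in the static and 11.3 in the stretched culture of animal 1, and 193 and 62.4 in animal 2 (log2 change -2.36 ± 0.32 SE, adjusted p = 0.0973). Ptx3, a soluble pattern recognition protein induced by inflammatory cytokines, was at 68.6 and 8.01 in animal 1 and 75.9 and 23.6 in animal 2 (static and stretched, log2 change -2.30 ± 0.31 SE, adjusted p = 0.0973). The static and stretched values did not overlap for either gene, and the difference was larger in animal 1. Nid2, a basement membrane protein, was at 100.1 and 19.99 in animal 1 and 321 and 117 in animal 2, so that the stretched culture of animal 2 lay above the static culture of animal 1, and the direction was read within animals. Aldh1a1 (log2 change -1.80 ± 0.26 SE, adjusted p = 0.0979), whose values were given above, is also among the 10. Igfbp2, which binds insulin-like growth factors, was at 34.4 and 6.84 in animal 1 and 28.7 and 11.5 in animal 2. Vat1l was at 20.4 and 4.03 in animal 1 and 14.8 and 5.36 in animal 2. The metalloreductase Steap4 was at 15.6 and 1.75 in animal 1 and 189.8 and 111 in animal 2. Steap4 thus differed more between the animals than between static and stretched cultures. Gm12918, annotated as a processed pseudogene, was at 68.6 and 37.2 in the static cultures and had 0 reads in both stretched ones, at least 471-fold and 227-fold lower when 3 reads per library are taken as the floor (adjusted p = 0.0510). Gm12918, Gm14434 (11.2 and 2.23 in animal 1 and 7.50 and 0.711 in animal 2) and a processed pseudogene without a symbol (ENSMUSG00000101878, 12.1 and 1.26 in animal 1 and 9.66 and 4.21 in animal 2) may share reads with similar sequences and are uncertain.

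Genes of hyaluronan turnover lay on both sides. Beside Cemip, the hyaluronan synthase Has2, chosen after its values were seen, was at 48.5 and 74.9 in animal 1 and 79.3 and 168 in animal 2 (static and stretched, log2 change 0.85 ± 0.28 SE, adjusted p = 0.312). It was higher in the stretched culture of both animals, and in WT animals as well (log2 changes 2.04 and 0.76).

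TGF-beta genes were more often higher than lower. Of 29 ligands, receptors, effectors and targets measured, 18 were higher and 6 lower on stretch in both animals, with a median change of 0.12 in animal 1 and 0.13 in animal 2, against -0.00023 in animal 1 and -0.0044 in animal 2 over all tested genes. Over all tested genes 30% were higher and 30.9% lower in both animals, and the counts of this and the following lists are set against those shares. None passed the adjusted threshold. The ligand Tgfb1 was at 85.4 in the static and 90.4 in the stretched culture of animal 1, and 68.8 and 119 in animal 2. The type I receptor Tgfbr1 was at 53.9 and 56.8 in animal 1 and 92.9 and 117 in animal 2, and both genes differed more in animal 2. The type III co-receptor Tgfbr3 was lower, at 108 and 50.5 in animal 1 and 186 and 133 in animal 2. Itgav, the alpha-V integrin subunit that helps to release active TGF-beta from its latent form, was at 557 and 826 in animal 1 and 369 and 539 in animal 2 (log2 change 0.56 ± 0.081 SE, adjusted p = 0.102). Among feedback inhibitors and targets, Pmepa1 was at 157 and 357 in animal 1 and 154 and 249 in animal 2. The ubiquitin ligase Smurf2 was at 154 and 219 in animal 1 and 93.9 and 133 in animal 2. The SMAD co-repressor Skil was at 125 and 181 in animal 1 and 99.2 and 139 in animal 2. These feedback genes had log2 changes between 0.50 and 0.93 in the fit and were higher in all 4 animals of the experiment, since the WT changes were 1.05 and 0.63 for Pmepa1, 0.51 and 0.31 for Smurf2 and 0.52 and 0.30 for Skil. Inhba, which encodes the activin A subunit and was chosen after its values were seen, was at 294 and 449 in animal 1 and 112 and 352 in animal 2.

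BMP signaling, the other main branch of the family, held genes on the lower side. Of 19 genes measured, 11 were lower and 8 higher on stretch in both animals, and the median change was -0.23 in animal 1 and -0.068 in animal 2. The ligand Bmp4 was at 7.17 in the static and 3.01 in the stretched culture of animal 1, and 20.1 and 5.25 in animal 2 (log2 change -1.39 ± 0.20 SE, adjusted p = 0.0973). Bmp6 was at 7.25 and 3.54 in animal 1 and 5.14 and 2.79 in animal 2. Id1, Id2 and Id3, direct targets of BMP receptors that block basic helix-loop-helix factors, were all lower in both animals. Id3 was at 161 and 98.97 in animal 1 and 192 and 123 in animal 2. Id2 was at 82.6 and 52.3 in animal 1 and 31.97 and 18.6 in animal 2 and Id1 at 69.9 and 46.5 in animal 1 and 63.3 and 41.8 in animal 2. On the other side, the receptor Bmpr2 was at 124 and 163 in animal 1 and 156 and 208 in animal 2. The procollagen proteinase Bmp1, which shares the name but is a metalloproteinase, was at 406 and 669 in animal 1 and 401 and 529 in animal 2. The related proteinase Tll1, chosen after its values were seen, was at 62.6 and 119 in animal 1 and 39.3 and 86.6 in animal 2 (log2 change 1.02 ± 0.11 SE, adjusted p = 0.0973).

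Of 22 Wnt and Notch genes, 8 were higher and 5 lower in both animals (median change 0.19 in animal 1 and 0.17 in animal 2), counts near the shares of 30% and 30.9% over all tested genes. Values of single genes are given as a description. The ligands of the noncanonical branch led the list beside Jag1: Wnt11 was at 5.11 and 11.4 in animal 1 and 3.08 and 11.8 in animal 2 (static and stretched) and Wnt5a at 65.4 and 162 in animal 1 and 87.9 and 125 in animal 2. Wnt2 was at 4.70 and 8.10 in animal 1 and 4.01 and 7.83 in animal 2. The Notch target Hes1 was at 30.5 and 40.3 in animal 1 and 24.1 and 29.2 in animal 2, a smaller difference than that of the Notch ligand. Wisp1, a secreted target of Wnt signaling, was at 249.7 and 429.5 in animal 1 and 381 and 478 in animal 2. The 4 leading genes were named only among those with 1 direction in both animals, so their agreement was set by that rule. Their adjusted p-values by limma ranged from 0.123 (Wnt11) to 0.188 (Wnt2).

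Growth factors and their receptors and binding proteins were split, with 14 of 30 higher and 9 lower in both animals. Hbegf, a ligand of the EGF receptor, was at 68.5 and 126 in animal 1 and 25.7 and 58.8 in animal 2. Pdgfc, a ligand of PDGF receptors, was at 13.1 and 32.7 in animal 1 and 23.1 and 38.2 in animal 2. The PDGF receptors lay on opposite sides. Pdgfrb was at 69.4 and 123 in animal 1 and 149.7 and 197 in animal 2. Pdgfra was at 55.4 and 19.3 in animal 1 and 706 and 489.7 in animal 2. The static levels of Pdgfra differed more between the animals than static and stretched cultures did within either. The binding protein Igfbp3 was at 335 and 99.9 in animal 1 and 1223 and 487 in animal 2 (log2 change -1.53 ± 0.27 SE, adjusted p = 0.145). The HGF receptor Met was at 181 and 128 in animal 1 and 167 and 118 in animal 2.

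Collagens lay on both sides. Of 22 collagen genes, 10 were higher and 10 lower in both animals, and the medians were 0.034 in animal 1 and -0.023 in animal 2. Col5a3, a minor fibrillar chain, was at 72.3 in the static and 118 in the stretched culture of animal 1, and 115 and 236 in animal 2 (log2 change 0.87 ± 0.12 SE, adjusted p = 0.0973). Col6a3 was at 125 and 311 in animal 1 and 412 and 758 in animal 2 and Col7a1, the anchoring fibril collagen, at 7.09 and 26.005 in animal 1 and 12.2 and 25.01 in animal 2. Lower on stretch were the short-chain collagen Col8a1, at 118 and 63.2 in animal 1 and 122 and 83.2 in animal 2, and the basement membrane chains Col4a5 and Col4a6, at 344 and 237 in animal 1 and 258 and 173 in animal 2 and at 65.8 and 34.2 in animal 1 and 57.4 and 33.1 in animal 2. The most abundant chain, Col1a1, was at 6884 and 7782 in animal 1 and 15404 and 14066 in animal 2 with opposite directions in the 2 animals (log2 change 0.023 ± 0.17 SE). Plod2, the lysyl hydroxylase that modifies collagen telopeptides and was chosen after its values were seen, was at 506 and 773 in animal 1 and 319 and 498 in animal 2.

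Among 20 other matrix genes, 7 were higher and 8 lower in both animals (median change -0.23 in animal 1 and 0.084 in animal 2), and the summed fibroblast markers were at 199.5 and 62.5 in animal 1 and 1546 and 1241 in animal 2, whose part in these medians was not tested. Postn, the matricellular protein periostin, was at 86.8 and 225 in animal 1 and 153 and 278 in animal 2. Tnc, tenascin-C, was at 940.2 and 1255 in animal 1 and 2178 and 3068 in animal 2. Fn1, fibronectin, was at 12498 and 9031 in animal 1 and 22899 and 21206 in animal 2, lower on stretch in both animals with a spread that left it far from the threshold (log2 change -0.29 ± 0.17 SE, adjusted p = 0.513). The receptors of these proteins were more often higher. Of 20 integrin and focal adhesion genes, 10 were higher and 5 lower in both animals. Itgb3, which pairs with the alpha-V subunit, was at 79.1 and 123 in animal 1 and 110.0 and 262 in animal 2. The fibronectin receptor subunit Itga5 was at 1408 and 1946 in animal 1 and 843 and 1535 in animal 2. The collagen receptor subunit Itga2 was at 4.20 and 7.57 in animal 1 and 2.67 and 5.91 in animal 2. Itgb1, the shared beta subunit, was at 2917 and 3802 in animal 1 and 1329 and 1710.0 in animal 2. The adaptor genes of focal adhesions such as Ilk (299 and 318 in animal 1 and 259 and 267 in animal 2) and Tln1 (1116 and 1002 in animal 1 and 931 and 897 in animal 2) differed less.

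Matrix-degrading enzymes and their inhibitors differed between the animals. Of 20 genes of the MMP, ADAMTS and TIMP families, 9 were lower and 1 was higher in both animals, while the remaining 10 differed in direction. The medians were -0.33 in animal 1 and 0.015 in animal 2, so the list's median lay below 0 in animal 1 and near 0 in animal 2. The summed fibroblast markers were also lower on stretch in animal 1, at 199.5 and 62.5, and their part in this was not tested. Adamts5, an aggrecanase, was at 116 in the static and 40.5 in the stretched culture of animal 1, and 104 and 55.2 in animal 2 (log2 change -1.20 ± 0.14 SE, adjusted p = 0.0973). The stromelysin Mmp3 was at 11.9 and 3.15 in animal 1 and 54.3 and 26.3 in animal 2. Adamts9 was at 71.9 and 17.9 in animal 1 and 164 and 101 in animal 2. The inhibitor Timp3 was lower as well, at 2199 and 1624 in animal 1 and 3247 and 2575 in animal 2. The gelatinase Mmp2 was the 1 gene higher in both animals, at 241 and 313 in animal 1 and 707 and 825 in animal 2.

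Chemokines, cytokines and adhesion molecules of leukocyte recruitment gave a result that depended on the animal. Of 23 genes measured, 11 were lower and 6 higher in both animals, but the median change was -0.74 in animal 1 and -0.0023 in animal 2. The neutrophil chemoattractant Cxcl1 was at 73.3 in the static and 15.96 in the stretched culture of animal 1, and 78.8 and 36.01 in animal 2. Cxcl5, chosen after its values were seen, was at 171 and 53.8 in animal 1 and 397 and 157 in animal 2. The endothelial-type adhesion molecules Icam1 and Vcam1 were at 37.99 and 21.3 in animal 1 and 29.5 and 18.1 in animal 2 and at 340.4 and 86.9 in animal 1 and 585 and 390.5 in animal 2. The monocyte chemoattractant Ccl2 was at 187 and 76.9 in animal 1 and 162 and 133 in animal 2. All of these were lower on stretch in both animals. On the other side, Il11, also of this list, was at 10.4 and 25.7 in animal 1 and 3.39 and 16.1 in animal 2. It is 1 of the 6 genes higher in both animals, and the other members of that group are not given here. Il6 was at 28.8 and 8.98 in animal 1 and 70.01 and 83.7 in animal 2 and so differed in opposite directions. Saa3, an acute-phase protein chosen after its values were seen, was at 192 and 99.3 in animal 1 and 3096 and 1819 in animal 2 (log2 change -0.85 ± 0.10 SE, adjusted p = 0.0973) and shared that direction in the WT cultures (log2 changes -0.92 and -0.66). In animal 1, where the list's median was lower, the summed leukocyte markers were at 4823 and 4851 (static and stretched). The median change of the 17 leukocyte markers was -0.21 in that animal. The summed fibroblast markers were at 199.5 and 62.5, and the part of either marker list in the chemokine median was not tested.

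Promoter windows are shown for 4 of these genes, taken after their values were seen, because short motifs bound by factors of stretch and inflammation lay in them: Il11 (higher) and Mmp3 (lower) hold the AP-1 heptamer TGANTCA, and Cxcl1 and Ptx3 (both lower) hold a kappa-B-like motif, GGG followed after 2 or 3 bases of any kind by TTCC. Both strands were searched, the motifs are in capitals, and Cxcl1 holds 3 matches of which a pair overlap. The sequences run 5′ to 3′ on the strand of the gene, from 250 bases before to 50 bases after a transcription start in RefSeq, build GRCm38.p6.
Il11, chr7:4778092-4778391, minus strand: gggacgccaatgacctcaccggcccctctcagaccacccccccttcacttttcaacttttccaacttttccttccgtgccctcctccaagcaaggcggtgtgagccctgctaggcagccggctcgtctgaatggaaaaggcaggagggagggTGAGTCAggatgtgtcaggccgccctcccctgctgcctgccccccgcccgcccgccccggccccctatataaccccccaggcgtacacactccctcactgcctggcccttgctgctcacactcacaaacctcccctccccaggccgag
Mmp3, chr9:7445572-7445871, plus strand: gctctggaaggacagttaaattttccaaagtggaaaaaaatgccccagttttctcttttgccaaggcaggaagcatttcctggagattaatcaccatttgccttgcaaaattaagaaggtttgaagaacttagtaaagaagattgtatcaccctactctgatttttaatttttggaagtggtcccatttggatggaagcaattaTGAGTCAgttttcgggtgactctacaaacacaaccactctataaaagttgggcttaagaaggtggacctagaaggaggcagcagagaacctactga
Cxcl1, chr5:90890995-90891294, plus strand: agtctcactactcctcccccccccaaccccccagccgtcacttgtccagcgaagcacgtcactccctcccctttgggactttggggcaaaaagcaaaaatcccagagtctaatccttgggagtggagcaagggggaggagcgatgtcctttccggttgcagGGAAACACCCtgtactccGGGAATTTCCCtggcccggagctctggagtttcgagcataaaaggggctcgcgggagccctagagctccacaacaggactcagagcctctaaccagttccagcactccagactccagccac
Ptx3, chr3:66219637-66219936, plus strand: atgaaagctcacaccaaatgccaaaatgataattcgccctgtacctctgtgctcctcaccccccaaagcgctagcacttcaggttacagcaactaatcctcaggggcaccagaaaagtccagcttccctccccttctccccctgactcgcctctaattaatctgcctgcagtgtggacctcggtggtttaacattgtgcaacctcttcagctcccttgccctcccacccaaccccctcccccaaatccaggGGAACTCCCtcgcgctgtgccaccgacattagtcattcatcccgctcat
Of 9881 tested genes with a window in that table, 6.56% held the heptamer and 13.6% the kappa-B-like motif, against 8.97% and 11.0% of all 27025 genes in it. Among the genes higher by at least 1.5-fold in both animals, 13 of the 70 with a window held the heptamer (18.6%) and 11 the kappa-B-like motif (15.7%). Among those lower, 16 of 118 held the heptamer (13.6%) and 15 the kappa-B-like motif (12.7%). The heptamer was thus more frequent than among tested genes on both sides, with no test made, and a match describes letters and not binding.

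Prostaglandin and natriuretic peptide genes were evenly split, with 5 higher and 5 lower of 16. Ptgs2, the inducible cyclooxygenase COX-2, was at 1753 and 2343 in animal 1 and 993 and 1818 in animal 2. Among the enzymes that follow it, Ptges and Ptgis were lower in both animals, and other synthases are not given here. The prostaglandin E synthase Ptges was at 32.5 and 19.4 in animal 1 and 25.1 and 19.04 in animal 2. The prostacyclin synthase Ptgis was at 393 and 286 in animal 1 and 594 and 488 in animal 2. Hpgd, which degrades prostaglandins, was at 7.42 and 2.57 in animal 1 and 4.32 and 2.24 in animal 2. Of 20 interferon-stimulated genes, 9 were lower and 3 higher in both animals (median change -0.18 in animal 1 and -0.027 in animal 2). Irf7 was at 3.54 and 1.26 in animal 1 and 2.78 and 1.81 in animal 2 and Gbp2 at 16.1 and 6.94 in animal 1 and 11.9 and 9.14 in animal 2.

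Targets of YAP and TAZ lay on both sides. Of 22 targets, 6 were higher and 8 lower in both animals, with medians of -0.11 in animal 1 and 0.064 in animal 2. Ctgf, the connective tissue growth factor, was at 1353 in the static and 1322 in the stretched culture of animal 1, and 612 and 716 in animal 2 (log2 change 0.10 ± 0.10 SE, adjusted p = 0.715). Cyr61, a secreted protein of the same family, was at 822 and 711 in animal 1 and 628 and 557 in animal 2. Ankrd1, a nuclear ankyrin repeat protein, was at 276 and 238 in animal 1 and 58.8 and 63.5 in animal 2. Within an animal these 3 genes differed by less than they did between the animals. Amotl2, an inhibitor of YAP that is itself a target, was at 464 and 315 in animal 1 and 409 and 279.7 in animal 2 (log2 change -0.55 ± 0.078 SE, adjusted p = 0.0973), whereas Dock5 was at 156 and 213 in animal 1 and 104 and 148 in animal 2 and the kinase Nuak2 at 14.01 and 26.6 in animal 1 and 8.12 and 14.8 in animal 2. The immediate-early genes were likewise split, 7 higher and 8 lower of 22. Jun was at 86.2 and 116 in animal 1 and 75.6 and 104 in animal 2. Fos, its partner in AP-1, was at 18.5 and 10.2 in animal 1 and 15.2 and 10.7 in animal 2. Egr1 was at 57.9 and 39.7 in animal 1 and 122 and 88.9 in animal 2.

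Actomyosin genes and targets of serum response factor were more often lower (11 of 22) than higher (2) in both animals, with medians of -0.11 in animal 1 and -0.042 in animal 2. Acta2, the smooth muscle actin read as a marker of myofibroblasts, was at 6045 in the static and 4382 in the stretched culture of animal 1, and 2774 and 2501 in animal 2 (log2 change -0.31 ± 0.13 SE, adjusted p = 0.373). The light chain Myl9 was at 573 and 447 in animal 1 and 298 and 235 in animal 2. In contrast, the skeletal actin gene Acta1, chosen after its values were seen, was at 685 and 1231 in animal 1 and 6.37 and 15.9 in animal 2 (log2 change 1.02 ± 0.13 SE, adjusted p = 0.0973). Its direction was shared although its static level was 685 in 1 animal and 6.37 in the other, and Acta1 and Acta2 are close paralogs between which reads can be split.

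Of 9 genes of caveolae, 4 were higher and 4 lower in both animals. Sdpr, a cavin family protein, was at 190.5 and 127 in animal 1 and 182 and 93.03 in animal 2. Ptrf, the coat protein cavin-1, was at 636 and 569 in animal 1 and 477 and 408 in animal 2. Cav2, which forms complexes with caveolin-1, was at 62.3 and 53.1 in animal 1 and 14.3 and 15.7 in animal 2. Mechanosensitive channels held 1 large difference. Piezo2, an ion channel opened by membrane tension, was at 5.19 in the static and 17.6 in the stretched culture of animal 1, and 22.9 and 56.5 in animal 2 (log2 change 1.43 ± 0.14 SE, adjusted p = 0.0973), while its paralog Piezo1 was at 717 and 656 in animal 1 and 562 and 584 in animal 2. Of the 11 channels measured, 6 were higher and 3 lower in both animals.

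Mesothelial markers lay mostly on the lower side: 9 of 14 were lower and 2 higher in both animals, with medians of -0.21 in animal 1 and -0.48 in animal 2. The uroplakins Upk3b and Upk1b, surface proteins of mesothelium, were at 13.2 and 3.15 in animal 1 and 111 and 49.5 in animal 2 and at 155 and 76.9 in animal 1 and 223 and 137 in animal 2. The keratin Krt7 was at 31.9 and 18.1 in animal 1 and 23.4 and 10.2 in animal 2. Lrrn4, a membrane protein, was at 24.8 and 16.5 in animal 1 and 46.7 and 15.3 in animal 2. Efemp1, a matrix glycoprotein, was at 83.8 and 21.1 in animal 1 and 43.5 and 20.8 in animal 2. The adjusted p-values of these 5 genes ranged from 0.0973 (Upk3b) to 0.181 (Efemp1). Wt1, the transcription factor of the mesothelial lineage, was at 84.97 and 74.9 in animal 1 and 138 and 118 in animal 2. Msln, mesothelin, was at 209 and 193 in animal 1 and 38.04 and 20.4 in animal 2. Krt18 was higher on stretch in animal 1 and lower in animal 2, at 54.6 and 93.3 in animal 1 and 55.3 and 50.9 in animal 2. Krt19 was at 48.95 and 69.4 in animal 1 and 2.67 and 4.38 in animal 2. The summed markers were 1261 and 1117 in animal 1 and 1179 and 946 in animal 2, against 3166 to 4308 over the WT libraries, so the markers of the labelled cell type were present in all libraries, at lower sums in every CAV1-/- than in any WT library. Of 7 transcription factors of epithelial-to-mesenchymal transition, 3 were higher and 1 lower in both animals. Snai1 was at 37.2 and 51.04 in animal 1 and 80.9 and 92.7 in animal 2 and Snai2 at 9.31 and 13.3 in animal 1 and 11.5 and 15.7 in animal 2. Zeb1, also higher, hardly differed, with log2 changes of 0.070 in animal 1 and 0.062 in animal 2. Prrx1 was the 1 lower in both, at 145 and 82.6 in animal 1 and 191 and 179 in animal 2. The remaining 3 factors differed in direction between the animals. Of the 20 genes that the study read out elsewhere, which include Snai1, Tgfb1, Il11, Mmp2 and Acta2 and were chosen by the study and not independently of these questions, 6 were higher and 8 lower in both animals. The cyclin Ccnd1, also among them, was at 41.8 and 21.7 in animal 1 and 35.7 and 24.9 in animal 2.

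**Figure D4:**
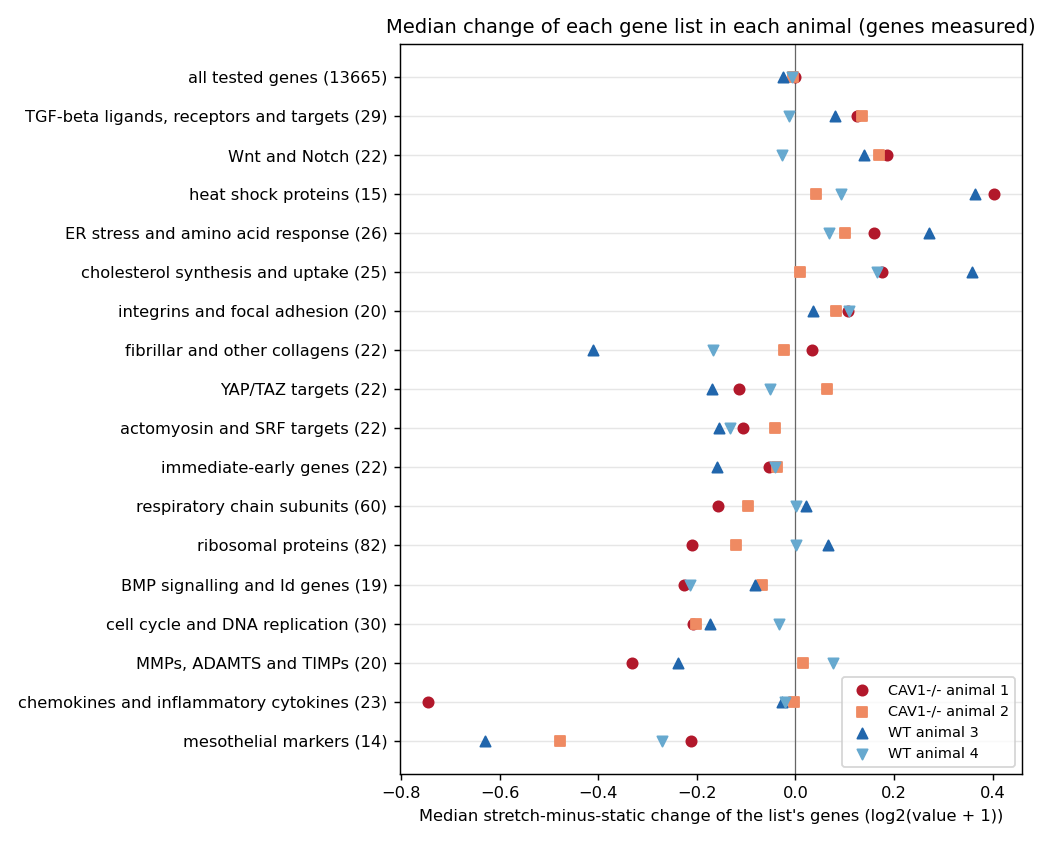
Median stretch-minus-static change (difference of log2(value + 1)) of 17 gene lists and of all tested genes in each animal, with the number of genes measured in brackets. Mesothelial markers, cell cycle genes, ribosomal proteins and respiratory chain subunits lie below 0 and the TGF-beta, Wnt and Notch, and ER lists above 0 in both CAV1-/- animals, while the chemokine median of -0.74 in animal 1 has a counterpart near 0 in animal 2.

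Several large groups of housekeeping and stress genes showed small shifts shared by both animals. Of 30 cell cycle and DNA replication genes, 22 were lower and 3 higher in both animals, with medians of -0.21 in animal 1 and -0.20 in animal 2. Tk1, thymidine kinase, was at 39.97 and 31.3 in animal 1 and 43.6 and 28.7 in animal 2. The mitotic kinase Cdk1 was at 74.3 and 58.6 in animal 1 and 91.2 and 74.7 in animal 2. Ribosomal protein genes were lower in 65 of 82 cases and higher in 6, with medians of -0.21 in animal 1 and -0.12 in animal 2 against 0.065 and 0.00091 in the WT animals. Rpl18 was at 607 and 479.7 in animal 1 and 674 and 517 in animal 2 and Rpsa at 858 and 681 in animal 1 and 975 and 801 in animal 2. Of 60 respiratory chain subunits, 42 were lower and 5 higher (medians -0.16 in animal 1 and -0.10 in animal 2). Many members of both families have processed pseudogenes that can share reads. These are short transcripts (median 1077 and 989 bases against 3367 over all tested genes), and over 13577 genes, which share their libraries, the change had a Spearman rho with transcript length of 0.139 in animal 1 and 0.197 in animal 2. With GC content it was 0.044 in animal 1 and -0.273 in animal 2. After each library's trend with GC content and length was removed, an alternative chosen after seeing the data, the ribosomal medians were -0.12 and -0.072, and those of the respiratory chain -0.067 and -0.038.

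The protein-folding lists lay on the other side. Of 26 genes of the endoplasmic reticulum stress and amino acid responses, 17 were higher and 3 lower in both animals (medians 0.16 in animal 1 and 0.10 in animal 2). Dnajb9, a co-chaperone of the endoplasmic reticulum, was at 40.4 and 48.8 in animal 1 and 27.1 and 38.2 in animal 2. Hsp90b1 was at 1717 and 2036 in animal 1 and 1563 and 1819 in animal 2. Of 15 heat shock proteins, 8 were higher and 0 lower (medians 0.40 in animal 1 and 0.042 in animal 2), with Hsph1 at 126 and 248 in animal 1 and 154 and 196 in animal 2. Of 25 genes of cholesterol synthesis and uptake, 13 were higher and 1 lower (medians 0.18 in animal 1 and 0.0086 in animal 2), with Cyp51 at 209 and 265 in animal 1 and 297 and 337 in animal 2. The differences of single members were small beside those of the leading genes above, and none passed the adjusted threshold.

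Glycolysis and hypoxia genes were 13 higher and 7 lower of 30. Adm, the vasodilator peptide adrenomedullin, which hypoxia induces, was lower, at 30.9 in the static and 12.8 in the stretched culture of animal 1, and 10.9 and 4.05 in animal 2 (log2 change -1.22 ± 0.12 SE, adjusted p = 0.0973), whereas Vegfa was at 307 and 397 in animal 1 and 259.9 and 372 in animal 2. Targets of NRF2 and metallothioneins were 1 higher and 7 lower of 19 (medians -0.47 in animal 1 and 0.089 in animal 2), with Gstm1 at 237 and 146 in animal 1 and 40.2 and 34.7 in animal 2. Targets of p53 were 3 higher and 8 lower of 15, with Cdkn1a, the cell cycle inhibitor p21, at 297 and 259 in animal 1 and 298 and 260.3 in animal 2.

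The markers of other cell types were given by counts. Of 17 leukocyte markers, 3 were higher and 3 lower in both animals (medians -0.21 in animal 1 and 0.13 in animal 2), with C1qa at 8.57 and 13.9 in animal 1 and 0.617 and 1.15 in animal 2. Of 6 fibroblast markers, 4 were lower and 0 higher (medians -0.63 in animal 1 and -0.10 in animal 2). Dcn, the proteoglycan decorin, was at 142 and 42.6 in animal 1 and 804 and 713 in animal 2, with a larger difference on stretch in animal 1. Of 4 endothelial markers 1 was higher and 2 lower in both animals, with Kdr at 7.75 and 9.12 in animal 1 and 32.5 and 64.03 in animal 2 and Cdh5, which defines endothelium, at 1.65 and 1.07 in animal 1 and 0.617 and 0.274 in animal 2. The 2 lower markers rest on few reads, and the stretched libraries were deeper. Cdh5 had 20 and 22 reads in animal 1 and 6 and 5 in animal 2 (static and stretched). Tek had 9 and 9 reads in animal 1 and 6 and 6 in animal 2. Of 3 mural cell markers 1 was higher (Cspg4) and 1 lower, the smooth muscle myosin Myh11, at 322 and 184 in animal 1 and 28.6 and 27.1 in animal 2. The adipocyte marker Fabp4 was at 28.6 and 26.6 in animal 1 and 5.45 and 3.12 in animal 2. The skeletal muscle marker Tnnt3 was at 0.907 and 1.21 in animal 1 and 0.411 and 1.31 in animal 2. Neither of the 2 lymphocyte markers had the same direction in both animals.

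Whether stretch acted differently on CAV1-/- than on WT MCs was tested by the interaction term of the same model. No gene passed (0 of 13665, 0%, lowest adjusted p = 0.342 by limma), and at an unadjusted p of at most 0.05 the change was more positive in CAV1-/- cells for 374 genes (2.74%) and more negative for 207 (1.51%). The same count was 0 with edgeR (533 genes at an unadjusted p of at most 0.05) and 6 with DESeq2 (223). It was 3 when WT animal 3 and 36 when WT animal 4 was left out. The values below are therefore a description, with the WT animals side by side. For Piezo2, the WT changes were 0.26 and 0.16 and the difference between the genotypes was 1.22 ± 0.19 SE (adjusted p = 0.947). For Aldh1a3, the WT changes were 2.04 and 1.58 and the difference was 1.26 ± 0.22 SE (adjusted p = 0.947). Both genes were higher on stretch in all 4 animals, and the changes of the CAV1-/- animals were above those of the WT animals. Cspg4 followed the same order (0.37 and 0.90 in WT animals, difference 1.13 ± 0.34 SE), as did Col6a3 (-0.12 and 0.47, difference 0.92 ± 0.23 SE) and Pdgfc (-0.25 and 0.30, difference 0.95 ± 0.25 SE). On the lower side, the WT changes of Ptx3 were -0.31 and -1.03, those of Icam1 -0.25 and -0.29 and those of Cxcl1 0.69 and -0.84, each less negative than in either CAV1-/- animal. All these genes were named by the size or p of their CAV1-/- change. The share of all tested genes with such an order of the animals was not counted. For other leading genes the genotypes overlapped: the WT changes were 2.34 and 0.71 for Jag1, 1.66 and 0.88 for Il11, 1.97 and 0.91 for Tfpi2, -2.03 and -1.33 for Igfbp2, -2.12 and -0.62 for Nid2 and -1.67 and -1.58 for Bmp4. Collagens had medians of -0.41 and -0.17 in the WT animals, and 15 of 22 were lower in both of them. Over all 13665 tested genes the WT medians were -0.025 and -0.0073, and 4637 genes were lower in both WT animals. For 3 collagen genes the change was more positive in CAV1-/- cells at an unadjusted p of at most 0.05, and for 0 it was more negative.

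**Figure D5:**
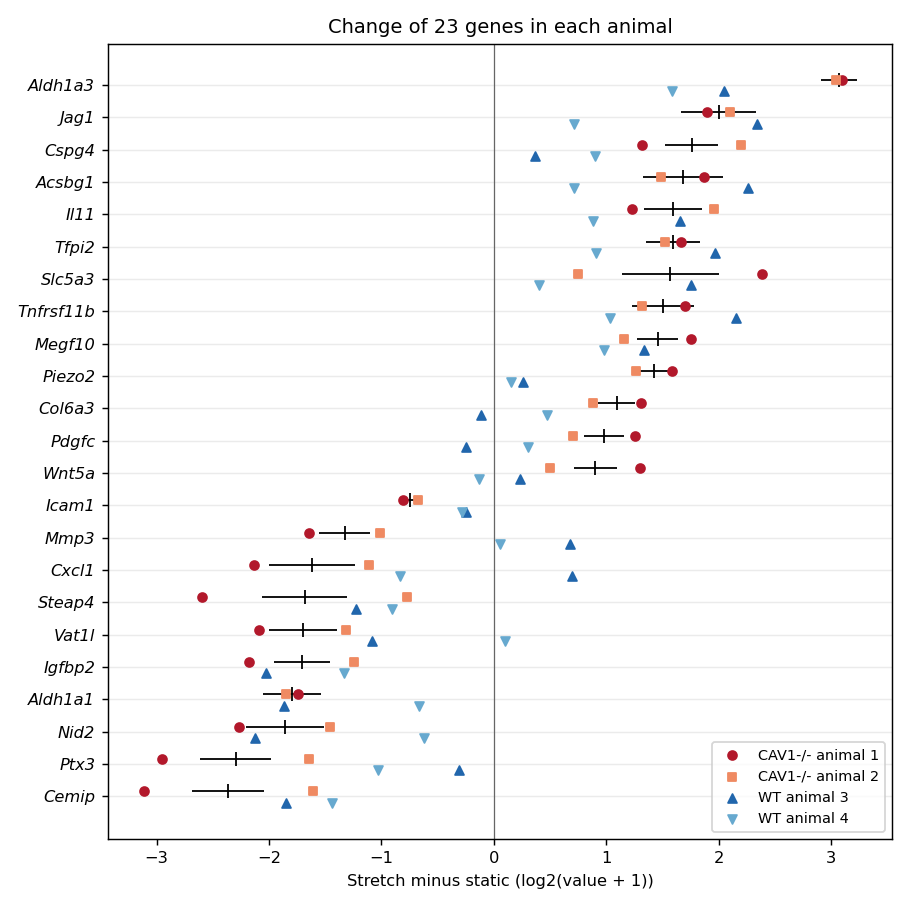
Stretch-minus-static change (difference of log2(value + 1)) of 23 genes in each CAV1-/- animal (red and orange) and each WT animal (blue), ordered by the fitted change of CAV1-/- cells, whose SE is the black bar. Piezo2 lies at 1.43 ± 0.14 in CAV1-/- cells and at 0.26 and 0.16 in the WT animals, whereas Jag1, Il11 and Igfbp2 overlap between the genotypes.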

How the data were processed

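Gene expression was measured by poly-A RNAseq with 61-base single reads in 8 libraries. Trimming (Cutadapt), alignment to GRCm38 transcripts and quantification (RSEM) were done by the authors, who then applied TMM scaling in edgeR. The deposited signal is CPM of TMM-adjusted library totals for 13687 genes. CASAVA, cutadapt and RSEM are also named in the submitters' processing notes. All values are whole multiples of the value of 1 read in their library (100% within a tolerance of 0.01 reads), so reads could be recovered, with totals of 9777738 to 21203938 per library. No value of the authors' own comparisons was used, and 1 readout of the study is not reported here.

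A gene was tested if 2 or more of the 8 libraries reached a value of 1, which left out 22 genes, and 1 was added before log2. The model was fitted over the 8 libraries in limma 3.58.1 under R 4.3.3, with a term per animal as replicate block and a stretch term per genotype, leaving 2 residual degrees of freedom, with an intensity trend in eBayes and Benjamini-Hochberg adjustment over 13665 genes. The interaction is the difference of the stretch terms. The animal numbers in the labels pair the cultures, and deviations of static and stretched cultures from their group means were correlated (r = 0.850 in CAV1-/- and 0.703 in WT animals). The labels do not give any other batch. Each animal gave 1 culture per condition, with 2 animals per genotype. The paper's figure legend gives a larger n per condition for the mouse RNAseq than these labels hold. The p-values rest on the spread of stretch changes between the animals of each genotype, pooled over both genotypes and moderated over genes.

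Named genes are those past the adjusted threshold, the 10 largest changes in each direction with a CAV1-/- mean of at least 5, an unadjusted p of at most 0.05 and 1 direction in both animals, the readouts of the study, and up to 4 genes per list by p. Further members of the lists, such as Tgfbr3, Id1, Col4a5, Efemp1 and Krt19, are given outside this rule and without a mark. Genes marked as chosen after their values were seen lie outside it too. The genes, lists and comparisons were chosen with earlier results of these data known. Positions and lengths are from GENCODE M21 on GRCm38, which held 13597 of the identifiers, and promoters from RefSeq.

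Alternatives were no replicate block, only the 4 CAV1-/- libraries, pseudocounts of 0.1 and 5, no filter, a mean of at least 5, median-of-ratios and quantile normalization, eBayes without trend, tests of the recovered reads by edgeR 4.0.16 (quasi-likelihood) and by DESeq2 1.42.0, genes within 4-fold between the CAV1-/- animals, and each animal left out. The scripts were checked on simulated data. The floor of 3 reads covers counting error only.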

Additional observations from a re-analysis of the deposited data

Results flagged for a closer look

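For 6 of the named genes both CAV1-/- animals moved one way on stretch and both WT animals the other way. The share of all tested genes with that pattern was not counted. Some of the WT changes were near 0, such as 0.011 for Ptges in WT animal 3 and 0.051 for Mmp3 in WT animal 4. The difference between the genotypes was tested for each by the interaction term of limma, and none passed after adjustment (adjusted p = 0.947 for all 6). Mmp3 was at 11.9 and 3.15 in animal 1 and 54.3 and 26.3 in animal 2 (static and stretched), and at 6.16 and 10.5 in WT animal 3 and 4.60 and 4.80 in WT animal 4, a difference in log2 change of -1.69 ± 0.32 SE. Ptges was at 32.5 and 19.4 in animal 1 and 25.1 and 19.04 in animal 2, and at 6.16 and 6.21 in WT animal 3 and 21.2 and 23.8 in WT animal 4, a difference of -0.64 ± 0.20 SE. Ndufa11, a subunit of respiratory complex I, was at 42.3 and 32.6 in animal 1 and 35.9 and 27.5 in animal 2, and at 34.4 and 35.7 in WT animal 3 and 29.6 and 29.6 in WT animal 4, a difference of -0.40 ± 0.14 SE in which the WT animals barely moved. Gdf15, a stress-induced cytokine, was at 10.2 and 13.3 in animal 1 and 4.11 and 5.47 in animal 2, and at 5.53 and 5.03 in WT animal 3 and 7.83 and 6.84 in WT animal 4, a difference of 0.49 ± 0.22 SE. Parp14, an interferon-stimulated gene, was at 11.4 and 13.6 in animal 1 and 6.17 and 7.88 in animal 2, and at 18.9 and 9.86 in WT animal 3 and 19.6 and 15.6 in WT animal 4, a difference of 0.86 ± 0.24 SE. Gm14434, whose reads may be shared with similar genes, differed by -3.36 ± 0.64 SE, and its interaction passed with DESeq2 on the recovered reads (adjusted p = 0.0309) but not with edgeR (adjusted p = 0.970).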

How the results depend on the processing

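With the animal as replicate block 1 gene was called for stretch in CAV1-/- cells and 0 for the interaction. Without the block the counts were 0 called, 147 higher and 139 lower at an unadjusted p of at most 0.05, and 66 for the interaction. The calls were 138 with only the 4 CAV1-/- libraries, 2 with a pseudocount of 0.1, with median-of-ratios rescaling and with edgeR, 0 with eBayes without trend, and 150 with DESeq2 (424 higher and 475 lower unadjusted, 6 and 223 for the interaction, 2385 genes without an adjusted p). Leaving out 1 animal gave 0 to 164 calls (164 and 163 without WT animal 3 and 4), 362 to 995 higher and 403 to 973 lower unadjusted, 0 to 36 calls for the interaction (3 without WT animal 3) and 301 to 1142 unadjusted. A lone CAV1-/- animal was then assumed to vary like the WT animals. The lowest counts came without CAV1-/- animal 1, and the highest for the interaction without WT animal 4. Genes at least 1.5-fold higher and lower in both CAV1-/- animals were 206 and 310 with a pseudocount of 0.1 and 55 and 72 with one of 5. The causes were not tested.

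The median of all tested genes turned positive with a pseudocount of 0.1 (0.00067), a mean of at least 5 (0.0049), quantile normalization (0.0065), genes within 4-fold between the animals (0.0042) and the GC and length trend removed (0.0065). The endothelial median turned to -0.14 with a pseudocount of 0.1, to -0.32 within 4-fold, and to -0.14 and -0.034 without animal 1 and 2. The fibroblast median turned to 0.40 and that of the readouts to 0.023 within 4-fold. That rule drops genes whose levels differ more between the animals, so the medians within 4-fold rest on fewer genes than the full lists. Pdgfra and Dcn, fibroblast markers lower on stretch in both animals, are dropped, as is Kdr, the endothelial marker higher in both. The fibroblast and endothelial values within 4-fold thus describe the remaining genes and are not a reversal of the same genes. Leaving out an animal turned Krt18 (-0.12 to 0.76), Il6 (-1.58 to 0.25), Ankrd1 (-0.21 to 0.11), Cav2 (-0.23 to 0.12), Col1a1 (-0.13 to 0.18) and Ctgf (-0.033 to 0.22), and the trend removal turned Ankrd1 (0.011), Col1a1 (-0.0075) and Dpt (0.032). The remaining counts are of pairings of 1 value with 1 alternative, so a gene or list is counted several times. Direction and side of the threshold were kept in 369 pairings of list medians and 1925 of named genes. In 180 pairings a named gene passed the threshold, and in 49 a list median moved by more than the spread between the animals.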

Other observations

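Further genes that differed by at least 1.5-fold in both CAV1-/- animals are given as single genes, all chosen after their values were seen. The semaphorin Sema7a was at 3.21 and 7.08 in animal 1 and 12.95 and 35.5 in animal 2 (static and stretched), whereas Sema3c, another semaphorin, was at 27.2 and 11.3 in animal 1 and 27.7 and 13.8 in animal 2. That each kept 1 direction in both animals follows from the choice of genes by that rule. The vascular growth factor gene Figf (VEGF-D) was at 10.4 and 4.61 in animal 1 and 47.1 and 12.9 in animal 2 (log2 change -1.41 ± 0.19 SE, adjusted p = 0.0973 by limma), and Pgf, placental growth factor, at 8.65 and 14.4 in animal 1 and 1.44 and 3.39 in animal 2. The syndecan Sdc4, a heparan sulfate proteoglycan of focal adhesions, was at 462 and 296 in animal 1 and 579.8 and 374 in animal 2 (log2 change -0.64 ± 0.078 SE, adjusted p = 0.0973) and was lower in both WT animals as well (log2 changes -0.53 and -0.56). Nox4, an NADPH oxidase, was at 7.75 and 16.9 in animal 1 and 5.04 and 8.10 in animal 2, and Sphk1, which makes sphingosine 1-phosphate, at 14.3 and 37.6 in animal 1 and 8.74 and 19.8 in animal 2. None of these genes passed the adjusted threshold.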
